A study of Xenopus laevis with 59 samples.

Results

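spata13 and lima1 are a pair of actin regulators whose RNA was animal in late oocytes of *X. laevis*, the African clawed frog. The members were chosen by gene name: every transcript of spata13 and lima1 in the count table, which gave 4 of 32291 transcripts, namely spata13.L, spata13.S, lima1.L and lima1.S. *X. laevis* is an allotetraploid, and the suffixes .L and .S mark the copies (homeologs) on its long and short subgenomes. The genes themselves had been picked because their section profile in these libraries was animal in late oocytes, with 3 of the 4 transcripts listed by name and spata13.L added by the same rule. Their section profiles, in every stage, are therefore given below as a description with no test. Tests are given for their totals, for the ratio of the homeologs and for the difference between big and medium oocytes. The choice was not made on these values. The totals and ratios nevertheless include the section A levels of late oocytes, which the choice used, and are not independent of it.

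In mammals, SPATA13 (also called ASEF2) is a guanine nucleotide exchange factor that switches on the small GTPases Cdc42 and Rac1 and is released from autoinhibition by the tumour suppressor APC. LIMA1 (also called EPLIN) is a LIM domain protein that bundles and stabilises actin filaments, slows branching by the Arp2/3 complex and ties cadherin junctions to actin through alpha-catenin. A full-grown frog oocyte has a dense actin cortex, a pigmented animal hemisphere that holds the nucleus and a yolk-rich vegetal hemisphere. No sequence is shown for the members, because the tables used here hold none.

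RNA had been sequenced from untreated oocytes of 4 size classes, each oocyte cut along the animal-vegetal axis into 5 sections from A (animal end) to E (vegetal end), with a library for each section (TOMO-Seq). There were 3 very small oocytes (560 to 580 µm, stage III), 5 small oocytes (720 to 810 µm, stage IV), 2 medium oocytes (1050 µm, labelled stage V and described in the study as early V) and 2 big oocytes (1140 and 1200 µm, labelled stage VI and described in the study as late V). The 9 small, medium and big oocytes came from female 1 and the 3 very small ones from female 2, so that stage and female cannot be told apart between very small and small oocytes. All replicates are oocytes of the same female, and p-values measure no spread between animals. The study had kept for sequencing the oocytes in which marker transcripts gave a continuous gradient. Very small oocyte 1 is used without its section A, and 59 libraries were analysed. Levels are CPM (read counts scaled to library size, here with TMM factors), they are not corrected for transcript length, and they give the part of a transcript in the RNA of a section, not its molecules per section. For other cells in a section, such as follicle cells, fewer cells of a type and less RNA per cell cannot be told apart. Each library had between 1014060 and 7356435 counts (median 3617720). The members had at least 18 counts in every library, and the lowest count was that of spata13.S in section E of medium oocyte 1. Reads that both homeologs share could be split or lost in the counting, so that each .L and .S value carries that uncertainty.

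In medium and big oocytes all 4 transcripts were highest in section A and low in sections D and E. spata13.S had the steepest profile. Its levels in sections A, B, C, D and E were 279, 219, 125, 52.5 and 18.9 CPM in big oocyte 1 and 363, 191, 114, 31.0 and 16.9 CPM in big oocyte 2. In medium oocyte 1 they were 302, 189, 94.9, 29.9 and 18.7 CPM and in medium oocyte 2 they were 375, 242, 131, 44.8 and 16.3 CPM. The 4 oocytes shared 1 order of sections, each section below the one before it, and the level in A was 14.8 to 23.0 times that in E. The section E values rest on 39 and 52 counts in big and 18 and 86 counts in medium oocytes, and the 95% Poisson interval of the lowest of these counts was 11.1 to 29.5 CPM, far under the section A values (the interval covers counting error only).

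lima1.S had 337 and 416 CPM in section A of the 2 big oocytes and 353 and 434 CPM in that of the 2 medium oocytes. In section E it had 58.1 and 59.6 CPM in big and 70.5 and 56.9 CPM in medium oocytes. The level in A was 5.01 to 7.63 times that in E, and the fall was stepwise from A to E in all 4 oocytes. lima1.L had 433 and 512 CPM in section A of big oocytes and 419.9 and 549 CPM in that of medium oocytes, and in section E it had 152 and 142 CPM in big and 116 and 125 CPM in medium oocytes. Its level in A was 2.84 to 4.38 times that in E, and in big oocyte 1 section E stood slightly above section D (152 against 147 CPM), the single break in the order. spata13.L had 136 and 161 CPM in section A of big and 162 and 175 CPM in that of medium oocytes, with 45.0 and 43.1 CPM in section E of big and 48.8 and 48.6 CPM in that of medium oocytes. Its level in A was 3.03 to 3.74 times that in E. Both .L copies thus had higher levels in the vegetal sections, relative to their other sections, than their .S partners in the same oocytes.

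**Figure D1:**
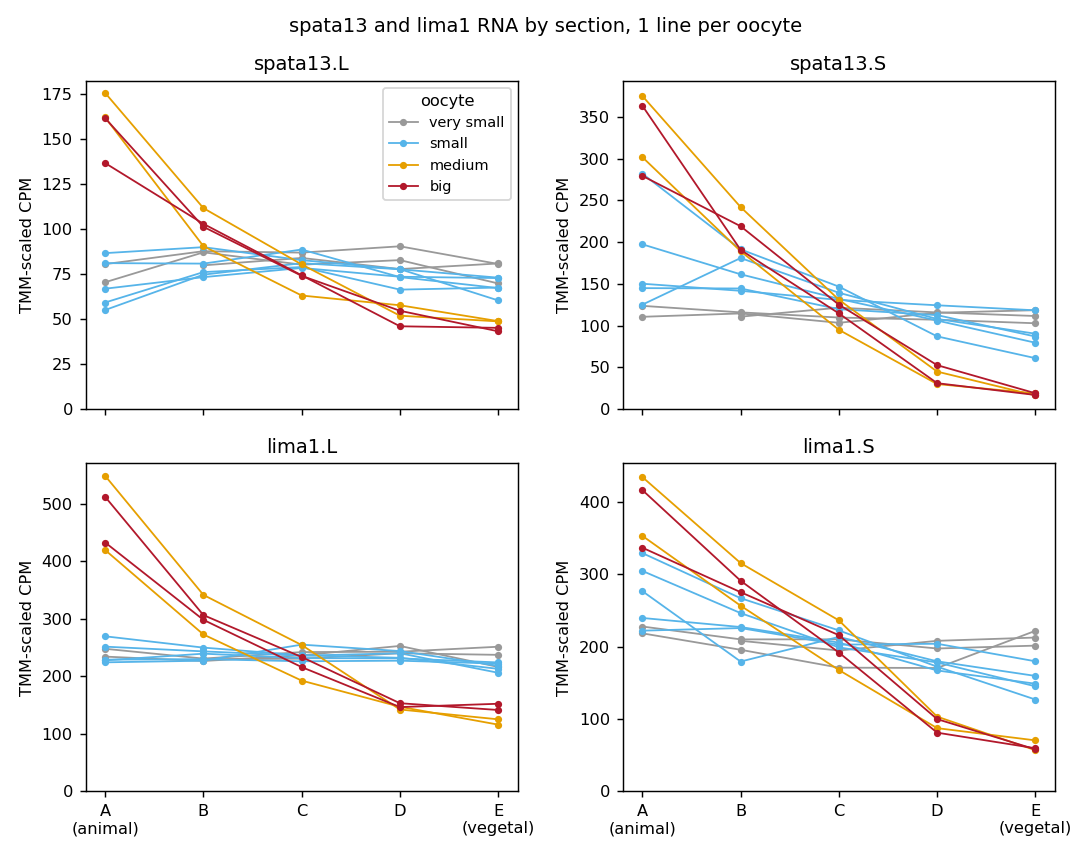
Level of the 4 transcripts in sections A (animal) to E (vegetal), in TMM-scaled CPM on a linear axis that starts at 0, with 1 line for each of 12 oocytes coloured by size class. In medium and big oocytes every line is far higher in A than in E, at 375 CPM in A and 16.3 CPM in E for spata13.S in medium oocyte 2, whereas very small oocytes give nearly flat lines and small oocytes slope mainly for the .S copies.

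The share of a section is its CPM over the sum of CPM in the 5 sections of an oocyte. It weights the sections equally whatever their RNA content, and an even level would give the same share in each section. By this measure the profile moved with growth. The section A share of spata13.S was 20.9 ± 1.74% for very small (SD, n = 2), 26.3 ± 6.78% for small (n = 5), 47.0 ± 0.857% for medium (n = 2) and 45.5 ± 7.43% for big oocytes (n = 2). Its share in section E was 19.7 ± 1.89%, 13.2 ± 3.63%, 2.48 ± 0.66% and 2.54 ± 0.258% in the same stages. For lima1.S the section A share was 22.1 ± 0.41%, 26.2 ± 3.28%, 37.8 ± 0.0974% and 37.1 ± 4.15%, from very small to big oocytes. lima1.L had shares of 20.2 ± 0.225%, 20.6 ± 1.31%, 37.7 ± 1.63% and 36.4 ± 2.33% in section A over the same 4 size classes. spata13.L had 18.5 ± 0.595%, 18.6 ± 2.68%, 37.9 ± 0.615% and 35.5 ± 2.43%. For both .L copies and for spata13.S, the mean section A share differed between small and very small oocytes by less than the SD over small oocytes. For lima1.S it differed by more than that SD. Single small oocytes spread more widely: the section A share of spata13.L was 15.2% to 21.8% in small oocytes and 18.1% to 18.9% in very small ones, and lima1.L fell stepwise to 17.7% in section E of small oocyte 1, against 22.4% in its section A.

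The very small oocytes were close to even for all 4 transcripts. In very small oocytes 2 and 3 no section share of any member was under 17.4% or over 22.7%. In very small oocyte 1, which has sections B to E here, spata13.S ranged between 111 and 121 CPM, lima1.S between 195 and 213 CPM, lima1.L between 230.0 and 240.4 CPM and spata13.L between 77.6 and 83.8 CPM.

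The move from small to late oocytes had both a gain at the animal end and a loss at the vegetal end on this relative scale. In section A, spata13.L averaged 159 CPM in medium and big oocytes and 69.6 CPM in small oocytes, 2.28 times as much, and lima1.L averaged 479 and 241 CPM in the same groups, 1.99 times as much. For lima1.S the ratio in section A was 1.40 and for spata13.S 1.83, with overlap between the groups for spata13.S, since small oocyte 1 already had 282 CPM there. In section E, spata13.S averaged 17.7 CPM in medium and big oocytes and 87.1 CPM in small oocytes, a ratio of 0.203. lima1.S averaged 61.3 and 152 CPM (0.403), lima1.L 134 and 217 CPM (0.617) and spata13.L 46.4 and 68.0 CPM (0.682). The groups did not overlap in sections D and E for any of the 4 transcripts, and in section C they overlapped for all 4. The share of all transcripts without such overlap was not computed. These section levels are those on which the genes were chosen, so the overlaps are a description.

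Among small oocytes the homeologs differed. The animal gradient of an oocyte is the log2 level in section A minus the mean log2 level of sections C, D and E. For spata13.S it was 1.62, 0.93 and 0.18 in the 3 small oocytes of 810 µm, 0.46 in the one of 750 µm and 0.27 in the one of 720 µm. For spata13.L in the same oocytes it was 0.25, 0.10, −0.26, −0.49 and −0.16. For lima1.S it was 0.96, 0.82, 0.60, 0.48 and 0.19, lowest in the smallest oocyte, and for lima1.L it was 0.25, 0.15, −0.09, 0.02 and −0.01. The .S copy was the more animal of each pair in 5 of 5 small oocytes, by 0.80 ± 0.39 for spata13 and 0.54 ± 0.22 for lima1 (log2, SD, n = 5). Small oocyte 3 stood out in its section A, where spata13.S had 125 CPM (95% Poisson interval 108 to 144) and section B had 181 CPM. That oocyte is the exception to a stepwise fall of spata13.S, which the 4 other small oocytes showed.

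The difference between the homeologs was wider in late oocytes for spata13 and not for lima1. In medium and big oocytes the gradient of spata13.S was 2.49 to 3.22 and that of spata13.L 1.35 to 1.58, a difference of 1.44 ± 0.23 (log2, SD, n = 4). For lima1.S it was 1.64 to 2.09 and for lima1.L 1.36 to 1.73, a difference of 0.34 ± 0.13, under that of the small oocytes. In the 2 very small oocytes with all sections, the .S copy was ahead by 0.31 and 0.11 for spata13 and by 0.17 and 0.21 for lima1. Over 4598 homeolog pairs with a mean total of at least 100 scaled counts for each copy, the gradients differed with 1 sign in all 5 small oocytes in 11.3% of pairs and in all 4 medium and big oocytes in 36.0%, so that a constant sign was common in late oocytes. The size was less common: 38 pairs (0.826%) had a mean difference at least as large as that of spata13 in medium and big oocytes, and 42 (0.913%) in small oocytes, with 0.5 CPM added before the log. For lima1 these were 1035 pairs (22.5%) in medium and big oocytes and 104 (2.26%) in small oocytes. These comparisons use the measure on which the genes were chosen and are a description.

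**Figure D2:**
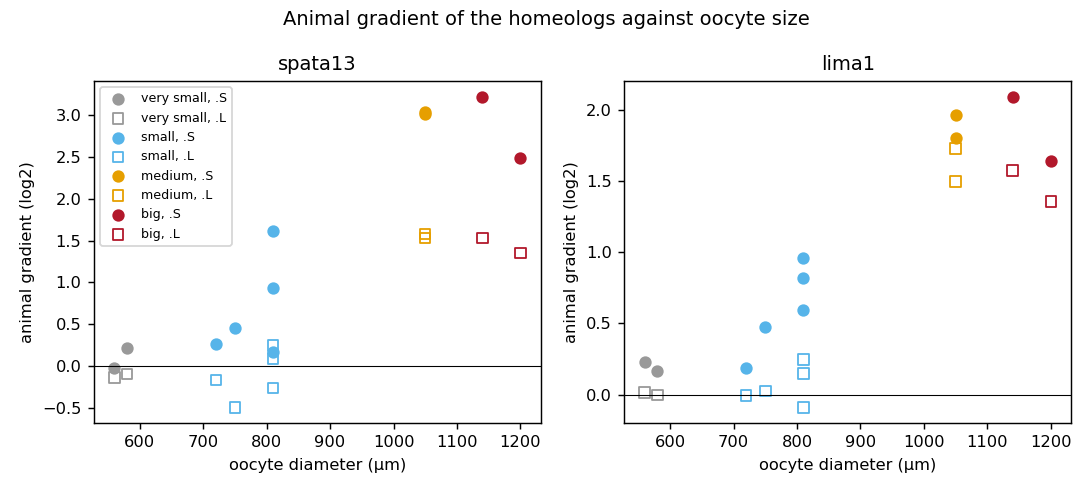
Animal gradient (log2 level in section A minus the mean log2 level of sections C, D and E) of the .S copy (filled circles) and the .L copy (open squares) against oocyte diameter in µm, 1 pair of points for each of 11 oocytes with all 5 sections. The .S copies lie above the .L copies in every oocyte, and in medium and big oocytes spata13.S reaches 2.49 to 3.22 and spata13.L 1.35 to 1.58.

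The mix of the spata13 homeologs turned round along the axis of late oocytes. The log2 ratio of spata13.L to spata13.S, in reads and not corrected for length, was −1.05 ± 0.12 in section A, −1.05 ± 0.09 in B, −0.67 ± 0.07 in C, 0.44 ± 0.53 in D and 1.39 ± 0.14 in E of medium and big oocytes (SD, n = 4). In small oocytes it was −1.33 ± 0.24 in A and −0.33 ± 0.25 in E (n = 5), and in very small oocytes −0.64 ± 0.02 in A (n = 2) and −0.53 ± 0.21 in E (n = 3). For lima1 the same ratio was 0.31 ± 0.05 in A and 1.12 ± 0.29 in E of medium and big oocytes, and −0.18 ± 0.16 in A and 0.52 ± 0.16 in E of small oocytes. The vegetal end thus held relatively more of the .L copy of both genes in small and in late oocytes, and the span between A and E was widest for spata13 in late oocytes.

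Ranked by the mean animal gradient in medium and big oocytes among the 14954 transcripts whose mean total reached 100 scaled counts in every stage, spata13.S was number 2, lima1.S number 14, lima1.L number 34 and spata13.L number 41. These ranks use the values by which the genes were chosen. Over all 19010 transcripts tested for this gradient with edgeR, 12.9% were higher in A and 11.7% were lower in A at an FDR under 0.1 (the Benjamini-Hochberg adjusted p over all transcripts, the threshold used throughout).

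No member passed the test of a different gradient in big than in medium oocytes. The difference of the animal gradient, big minus medium, was −0.22 for spata13.S (SE 0.21), −0.12 for spata13.L (SE 0.16), −0.15 for lima1.L (SE 0.15) and −0.04 for lima1.S (SE 0.18), on the log2 scale, and edgeR's quasi-likelihood test gave an adjusted p of 1.0 for each. Of 19010 transcripts, 1 was higher (0.00526%) and 0 were lower (0.0%) in that test, against 233 and 175 at an unadjusted p under 0.05. With 2 oocytes a stage, and big oocyte 1 flatter than big oocyte 2 for all 4 transcripts, the sign for spata13.S and lima1.S depended on that oocyte: without big oocyte 1 the differences were 0.14 and 0.19. Without medium oocyte 2 the difference for lima1.S was 0.07.

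The markers of other cells varied along the axis and between oocytes. The summed level of granulosa and follicle cell transcripts (9 of 17 over 20 counts) had a median of 88.5 CPM in section A, 29.5 in C and 79.7 in E of medium and big oocytes, and of 63.6, 21.1 and 60.3 CPM in small oocytes. Stroma, theca and smooth muscle transcripts (16 of 21 over 20 counts) had a median of 489 CPM in A, 202 in C and 609 in E of medium and big oocytes, and of 267, 130.3 and 142 CPM in small oocytes. In medium oocyte 1 their sum was lowest in A, at 163 CPM against 1122 CPM in E, and its granulosa sum was 46.6 CPM in A and 55.5 CPM in D. Blood and endothelium transcripts (9 of 21 over 20 counts; hba2, hba3, hbb1, hbb2 and hbe1 had no row) had a median of 97.7 CPM in A, 58.3 in C and 110.5 in E of medium and big oocytes, and of 60.4, 62.5 and 64.5 CPM in small oocytes. Section A, where the members were highest in medium and big oocytes, thus also had more of these markers than section C by the median of each list. The part of these cells' RNA in the members' gradients was not tested. Oocyte markers (13 of 14 over 20 counts) were between 1159 and 6674 CPM in every section of medium and big oocytes. Vegetal markers such as vegt and dazl had a median of 128 CPM in A and 4427 CPM in E there, the orientation that the labels give. The genes nanos1, dazl and ddx25 are in both lists, so the sums are not separate measures. In section E of medium oocyte 1 the oocyte sum was 6674 CPM and the vegetal sum 6245 CPM. The sum of 3 genes taken as animal markers (nup93, tubb and pabpc4) did not mark the animal end on this relative scale. Its medians were 206 CPM in A and 195 CPM in E of medium and big oocytes. Levels are relative to the RNA of each section, so a transcript spread like the bulk of the RNA looks even here. The paper states that its own normalization took out most animal transcripts. The part of the scaling in these marker values was not tested.

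Summed over the sections, the members' levels differed far less between stages than their profiles, for which the genes were chosen. Each section was scaled to the same depth before summing. A total thus weights the sections equally whatever their RNA content and is not an amount of RNA per oocyte. spata13.L averaged 86.3 ± 5.34 CPM per oocyte in medium and big oocytes and 74.4 ± 4.17 CPM in small oocytes (SD, n = 4 and 5). The single oocytes were at 80.8 and 86.8 CPM (big) and 84.3 and 93.5 CPM (medium), against 79.3, 78.1, 69.5, 72.1 and 72.8 CPM in small oocytes 1 to 5. It rose 1.16-fold (log2 0.21, SE 0.05), with an adjusted p of 0.0211 in edgeR's quasi-likelihood test. The totals include section A, whose late levels were used to choose the genes. The tests of both .L copies are therefore not independent of that choice. In sections B to E alone both .L totals were lower, as given below. lima1.L averaged 258 ± 23.2 CPM in medium and big oocytes and 234 ± 5.02 CPM in small oocytes, and medium oocyte 1 (229.8 CPM) lay within the range of small oocytes (227 to 241 CPM). Its rise of 1.10-fold (log2 0.14, SE 0.05) passed by a small margin, with an edgeR adjusted p of 0.0962. The call was lost when any of 10 of the 12 oocytes was left out, and held without medium oocyte 1 or without small oocyte 2. Without medium oocyte 2 the log2 change was 0.07, with an adjusted p of 0.36.

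Neither .S copy passed the test. spata13.S averaged 143 ± 14.5 CPM in medium and big oocytes and 134 ± 11.9 CPM in small oocytes (log2 0.08, SE 0.07, edgeR adjusted p = 0.496), and lima1.S averaged 205 ± 18.1 and 209 ± 10.4 CPM in the same groups (log2 −0.03, SE 0.06, edgeR adjusted p = 0.794). The members' 2 calls, both higher, stand beside 6.99% of 19067 transcripts that were higher and 9.77% that were lower in medium and big than in small oocytes. With sections B to E alone, and so without the section in which the late RNA was highest, all 4 totals were lower in medium and big oocytes, by −0.15 for spata13.L, −0.36 for spata13.S, −0.20 for lima1.L and −0.27 for lima1.S on the log2 scale. The part of the other cells' RNA in these totals was not tested.

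Between small and very small oocytes, which are also of different females, the spata13 homeologs went in opposite directions. Neither call held in every setting. spata13.S averaged 134 ± 11.9 CPM in small oocytes and 113 ± 1.61 CPM in very small oocytes (SD, n = 5 and 3), with 153, 135, 129, 122 and 133 CPM in small oocytes 1 to 5 against 115, 112 and 112 CPM in very small oocytes, and it rose 1.18-fold (log2 0.24, SE 0.08, edgeR adjusted p = 0.0307). With sections B to E, which all 3 very small oocytes have, the log2 change of spata13.S was 0.12 and the call was lost (adjusted p = 0.281). spata13.L averaged 74.4 ± 4.17 CPM in small and 81.2 ± 3.63 CPM in very small oocytes, with overlap, and it fell to 0.906 times the level of very small oocytes (log2 −0.14, SE 0.06, edgeR adjusted p = 0.0653), a call lost when small oocyte 3, 4 or 5 or very small oocyte 1 or 2 was left out (adjusted p of up to 0.246). lima1.L had a log2 change of −0.04 (SE 0.06, edgeR adjusted p = 0.634) and lima1.S of 0.02 (SE 0.06, edgeR adjusted p = 0.812). In this comparison 21.1% of 19067 transcripts were higher and 21.7% were lower, so that 1 higher and 1 lower of 4 members is close to the share over all transcripts. Very small oocyte 1 entered with sections B to E.

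Between big and medium oocytes none of the 4 totals passed. The log2 change was −0.08 for spata13.L, −0.03 for spata13.S, 0.02 for lima1.L and −0.04 for lima1.S (SE 0.08, 0.11, 0.08 and 0.08), each with an edgeR adjusted p of 1.0. Over 19067 transcripts, 0.021% were higher and 0.0% lower, against 336 and 300 transcripts at an unadjusted p under 0.05, and DESeq2 called 11 higher and 4 lower. Medium oocyte 1 was under medium oocyte 2 for all 4 members, for spata13.S at 127 against 162 CPM.

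**Figure D3:**
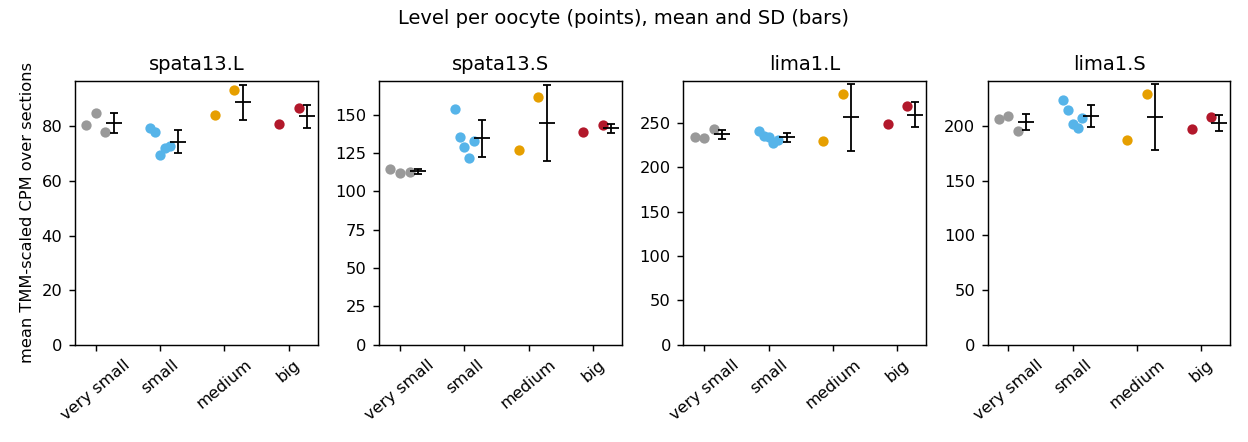
Mean level over the sections of an oocyte in TMM-scaled CPM (linear axis from 0) for the 4 transcripts in each size class, from very small to big, points for oocytes and bars for mean and SD. The mean level of spata13.L is 86.3 CPM in medium and big and 74.4 CPM in small oocytes. For spata13.S the level ranges from 112 CPM in very small oocyte 2 to 162 CPM in medium oocyte 2. The 2 medium oocytes are far apart for spata13.S (127 and 162 CPM).

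With section A included, the share of the homeologs in the total shifted towards .L in lima1. The log2 ratio of lima1.L to lima1.S totals was 0.34 and 0.37 in big and 0.30 and 0.30 in medium oocytes, against 0.10, 0.13, 0.21, 0.20 and 0.16 in small oocytes 1 to 5. The groups did not overlap, and the ratio was 1.12 times as high in medium and big oocytes (difference 0.17 on the log2 scale, exact permutation test, two-sided, p = 0.00794, the smallest that 126 arrangements can give). The adjusted p was 0.0159 over the 2 lima1 comparisons and 0.0317 over all 4 ratio comparisons of lima1 and spata13. Of 5461 homeolog pairs with over 20 counts for each copy, 4.83% were higher without overlap and 4.71% lower without overlap in this comparison, and 29.0% of the pairs had a change at least as large. In sections B to E alone the shift was weaker, at 0.07, and did not pass (exact permutation test, p = 0.159). The late section A levels were used to choose the genes, so the test over all sections is not independent of that choice. Between small and very small oocytes the lima1 ratio was 0.16 ± 0.05 and 0.22 ± 0.08 (SD, n = 5 and 3, exact permutation p = 0.268).

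The spata13 ratio was tested after its .L row had been found in the table, and its shift without overlap came between small and very small oocytes. In each comparison its change had the same sign as that of lima1. The lima1 change between small and very small oocytes was small, however (−0.06, exact permutation p = 0.268), and its sign turned in sections B to E. The log2 ratio of spata13.L to spata13.S was −0.85 ± 0.08 in small oocytes and −0.48 ± 0.07 in very small oocytes (SD, n = 5 and 3), without overlap. The difference was −0.37 (exact permutation test, two-sided, p = 0.0179, the smallest that 56 arrangements can give, and 0.0357 after adjustment over all 4 ratio comparisons). Over all pairs, 20.9% were higher and 19.4% lower without overlap between these stages, which are also different females, and 28.6% of pairs changed at least as much. Between medium and big oocytes (−0.72 ± 0.09, n = 4) and small oocytes (−0.85 ± 0.08, n = 5) the groups overlapped, with a difference of 0.13 (exact permutation p = 0.0635, and 0.0847 after adjustment over all 4 ratio comparisons). This last difference depended on how totals were formed, with an exact permutation p of 0.0397 on unscaled totals. The mean of the ratios within libraries is not a ratio of totals, because it weights the ratio of each section equally whatever its level. It thus takes in the section profiles on which the genes were chosen. By that measure the difference was 0.60, given as a description.

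**Figure D4:**
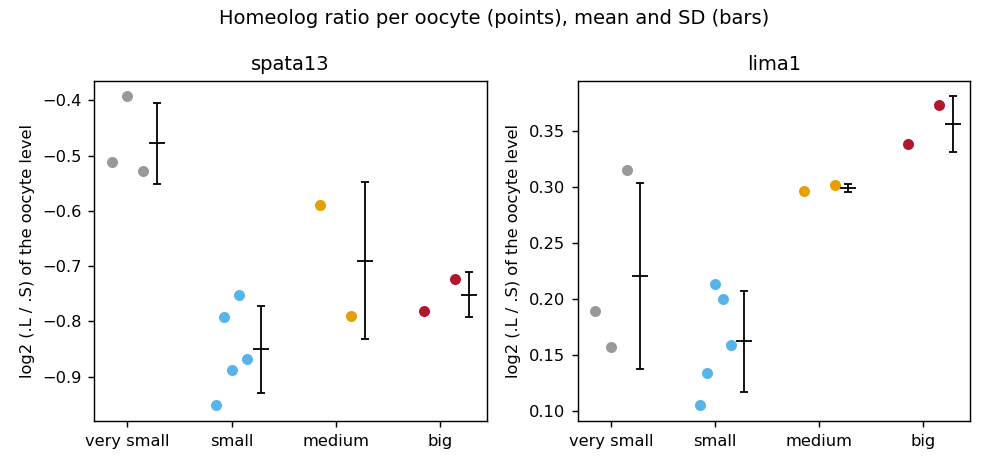
Log2 ratio of .L to .S levels per oocyte for spata13 and lima1 in each size class, from very small to big, points for oocytes and bars for mean and SD. For lima1 the 4 medium and big oocytes (0.30 to 0.37) lie above the 5 small ones (0.10 to 0.21), and for spata13 the small oocytes lie under the very small ones.

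The transcripts most like each member in their section shares were found over the 20 stage and section means, among 14950 others. Nearest to spata13.L were dcp1a.L, a subunit of the mRNA decapping complex (root mean square difference 1.31 percentage points, Pearson r = 0.985 over 20 points), the kinase gene akt2.L (1.33 points, r = 0.981), kbtbd8.L, a ubiquitin ligase adaptor (1.37 points, r = 0.979), and smtn.S, which encodes the actin-binding smoothelin (1.40 points, r = 0.982). The list of lima1.L shared kbtbd8.L (1.05 points) and akt2.L (1.06 points) with it and went on with ssr1.L and tfap2c.L (1.16 and 1.17 points). Among the members, spata13.L and lima1.L were 1.16 points apart, nearer than either was to its own homeolog (5.51 points for spata13 and 2.92 points for lima1).

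The .S copies had other neighbours. Nearest to lima1.S were adpgk.L (1.15 points, r = 0.993), nusap1.S, which encodes a spindle protein (1.31 points), prrg4.L (1.46 points) and nox1.L (1.71 points). spata13.S had no neighbour so close: prr11.L was 1.99 points away (r = 0.986), loc733714.L 2.37, prrg4.L 2.73 and slc48a1.L, a haem transporter gene, 2.76 points. The section A share of prr11.L was 46.8% in big and 47.8% in medium oocytes, close to the shares of spata13.S. The points share libraries, and the likeness is a description of these profiles alone.

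Other genes of the pathway did not share the profile as a group. Of 35 tested transcripts for Rac, Cdc42 and APC signalling, 4 were higher in section A and 7 were lower in medium and big oocytes (edgeR FDR under 0.1), beside 12.9% and 11.7% of all transcripts, and the median gradient was −0.01 against 0.00 over all. arhgef7.L, another exchange factor for Rac and Cdc42, had a gradient of 0.85 (SE 0.07, edgeR adjusted p = 8.43e-11), ppp1r9a.L, an actin-binding scaffold, 0.59 and cdc42.L, a GTPase that SPATA13 acts on in mammals, 0.45 (SE 0.13, adjusted p = 0.0133). cdc42.S had 0.08 and did not pass (adjusted p = 0.526), nor did apc.L (0.05) and apc.S (−0.10). wasl.S, encoding the Arp2/3 activator N-WASP, was lower in A, with a gradient of −1.40, and wasf2.L and wasf1.L of the WAVE complex had −0.47 and −0.45. arhgef4, the closest relative of spata13, was near 0, with 0.409 CPM for the .L and 0.228 CPM for the .S copy in medium and big oocytes, against 0.293 and 0.305 CPM in small oocytes, and was not tested.

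Among cortical and junctional actin linkers, 5 of 36 transcripts were higher and 9 lower in section A (median gradient −0.11). ctnna1, which encodes the alpha-catenin bound by LIMA1, was lower in A for both copies, at −0.31 for ctnna1.S (SE 0.07, edgeR adjusted p = 0.000609) and −0.26 for ctnna1.L (SE 0.08, adjusted p = 0.0152). vcl.S (vinculin) had −1.45 and nf2.L (merlin) −0.41. Higher in A were lpp.S (0.59) and limd1.L (0.37), both of LIM domain proteins, and cav1.L (1.28), which had 4.00 CPM in medium and big oocytes. Its homeolog cav1.S had a gradient of 1.46 (SE 0.44, edgeR adjusted p = 0.0173) at 1.19 CPM there. In actin filament assembly the balance was the other way, with 20 of 73 transcripts higher and 5 lower in A (27.4% and 6.85%, median gradient 0.05). arpc2.L, a subunit of the Arp2/3 complex, had a gradient of 1.17 (SE 0.12, edgeR adjusted p = 5.72e-09), svil.S 0.66 and the formin gene diaph1.L 0.48, while vasp.L had −0.74, anln.L −0.38 and the formin gene daam1.L −0.32. All 4 members lay above every tested gene of the 3 lists, from 1.5 for spata13.L to 2.94 for spata13.S, as the mean gradient over 4 oocytes. The edgeR estimate for cav1.S (1.46) was close to the mean of 1.5 for spata13.L, but these are different measures. As a mean over the 4 oocytes with 0.5 CPM added, spata13.L had 1.49, arpc2.L 1.20 and cav1.S 1.03. The members were chosen on this gradient, so their place above the lists is a description. The other list values are edgeR estimates, a different measure from the mean over oocytes. Counts over the lists depended on single oocytes: without medium oocyte 2 there were 4 lower for Rac, Cdc42 and APC signalling, 3 lower for linkers, and 13 higher and 3 lower for filament assembly. Without big oocyte 2 there were 2 higher for signalling and 5 lower for linkers.

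**Figure D5:**
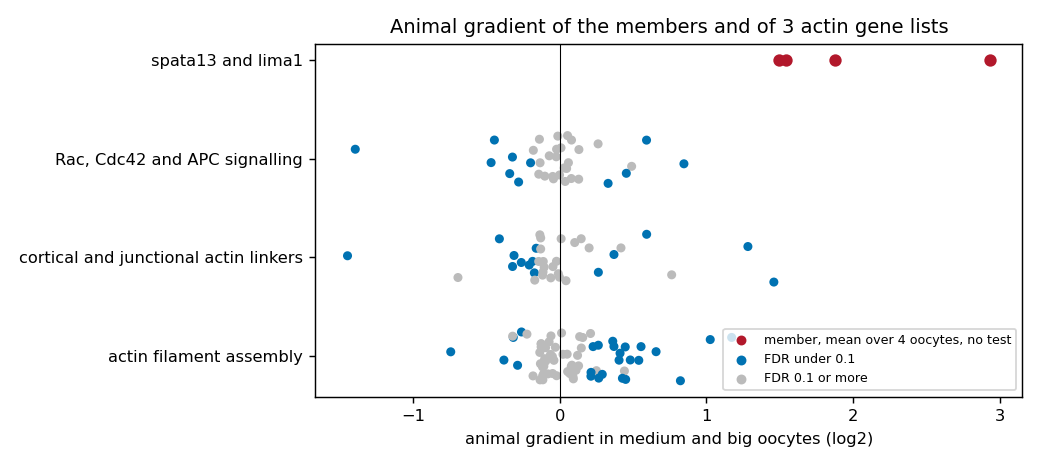
Animal gradient in medium and big oocytes (log2) of the 4 members (red, mean of 4 oocytes, not tested) and of the tested transcripts of 3 actin gene lists (35, 36 and 73 transcripts, blue where the edgeR FDR was under 0.1 and grey otherwise), with vertical scatter for display alone. The members, chosen on this gradient, lie at 1.5 to 2.94. The list genes, as edgeR estimates, lie at lower values on both sides of 0 (cav1.S at 1.46).

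For totals of medium and big over small oocytes, 4 of 36 transcripts for Rac, Cdc42 and APC signalling were higher and 2 lower, 7 of 33 linkers were higher and 0 lower (1 lower at an unadjusted p under 0.05, and 0 with DESeq2), and 5 of 73 assembly transcripts were higher and 7 lower, with medians of 0.02, 0.05 and 0.02 against 0.00 over all (6.99% higher and 9.77% lower over all). Higher were apc2.L (0.73), wasl.S (0.27) and wasf1.L (0.19), the linker genes ctnna1.L (0.14, edgeR adjusted p = 0.0423), rdx.L (0.14) and zyx.S (0.32), and anln.L (0.23), diaph1.L (0.15) and tmod3.S (0.14). Lower were cdc42.S (−0.17, edgeR adjusted p = 0.0384) and abi2.S (−0.23), and the assembly genes tmsb4x.L (−0.42), tmsb4x.S (−0.33) and arpc5.S (−0.32), of which thymosin beta-4 binds actin monomers. The changes of spata13.L (0.21) and lima1.L (0.14) are of the same size as most of these. The counts of higher transcripts ranged from 0 to 6 for signalling, 1 to 7 for linkers and 3 to 6 for assembly when each oocyte was left out, lowest without big oocyte 2 for signalling and without medium oocyte 1 for linkers. The counts of lower transcripts ranged from 0 to 2 for signalling (0 without big oocyte 1 or medium oocyte 1, 1 without small oocyte 3), from 0 to 1 for linkers (1 without small oocyte 5) and from 3 to 10 for assembly (3 without big oocyte 1, 4 without medium oocyte 1, 10 without small oocyte 2). The linkers had 2 higher without a filter on low counts.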

How the data were processed

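The data are 59 RNA-seq libraries, each of a section (A to E) of 1 of 12 *X. laevis* oocytes. The authors trimmed reads with Trimmomatic, removed ribosomal RNA, aligned with STAR 2.5.2b and deposited counts per transcript made with htseq-count. Strand handling in counting was not given in the sources used here, so that overlapping genes cannot be told apart. The authors' normalized tables were not used here. Sections were labelled by oocyte, which pairs them: sections of the same oocyte deviated together (mean r from 0.113 to 0.241 by stage, against −0.136 to −0.0597 for other oocytes), and the gradient fits have the oocyte as block. Of 73 pairs of replicate libraries none was a duplicate (chi-square per transcript from 1.39 to 10.5).

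The counts were scaled by TMM and tested by quasi-likelihood in edgeR 4.0.16 (R 4.3.3), with DESeq2 1.42.0 as an alternative. Totals are sums over sections of TMM-scaled counts, with stage as factor over 12 oocytes. Transcripts with a mean total over 20 were tested and called at an FDR under 0.1. Homeolog ratios were compared by exact permutation. The members and lists were chosen with earlier results of these data known. Named genes are the members, the 4 nearest profiles to each, the 3 smallest FDR per direction in each list, and arhgef4, apc, ctnna1 and cdc42. RefSeq symbols matched 2 of the 4 members (lima1.L and lima1.S), and spata13 is named as in the counts. The totals test of medium and big over small and the animal gradient test of medium and big oocytes were first tested on simulated counts. The gradient change and the other totals contrasts were not simulated. Alternatives were other scalings, DESeq2, no filter, sections B to E, A against E alone, no replicate block, unscaled sums, and each oocyte left out in turn.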

Additional observations from a re-analysis of the deposited data

How the results depend on the processing

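Leaving out each oocyte, the log2 total change of medium and big over small ranged from 0.18 to 0.24 for spata13.L (called throughout, FDR at most 0.0784), from 0.066 to 0.20 for lima1.L, from −0.0023 to 0.16 for spata13.S and from −0.098 to 0.037 for lima1.S. For small over very small it ranged from −0.17 to −0.11 for spata13.L, from 0.18 to 0.27 for spata13.S (called throughout) and from −0.0086 to 0.042 for lima1.S. For big over medium it ranged from −0.19 to 0.14 for spata13.S, from −0.11 to 0.17 for lima1.L and from −0.17 to 0.11 for lima1.S. The gradient change of big over medium ranged from −0.59 to 0.14 for spata13.S and from −0.27 to 0.19 for lima1.S. The spata13 ratio of medium and big over small ranged from 0.086 to 0.15. The transcripts called over the whole table ranged from 614 to 1817 (higher, medium and big over small), from 0 to 5 higher and from 0 to 1 lower (big over medium), from 1491 to 2382 higher and from 1276 to 2372 lower (animal gradient), and from 0 to 19 higher and from 0 to 1 lower (gradient change).

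With unscaled sums the log2 change was 0.0018 for lima1.S in medium and big over small, −0.12 for spata13.L (FDR 0.124) and −0.032 for lima1.S in small over very small, and 0.012, 0.086 and 0.055 for spata13.L, spata13.S and lima1.S in big over medium, where 0 transcripts were higher. With no filter on low counts lima1.L was at 0.14 (FDR 0.149) for medium and big over small and spata13.L at −0.13 (FDR 0.107) for small over very small. With sections B to E the changes of medium and big over small were −0.15, −0.36, −0.20 and −0.27 for spata13.L, spata13.S, lima1.L and lima1.S, which follows from leaving out section A and is given with no test. Those of small over very small were 0.12 for spata13.S (FDR 0.281) and −0.074 for lima1.S, that of big over medium was 0.0050 for spata13.S, and the lima1 ratio was 0.069 for medium and big over small and 0.026 for small over very small. The spata13 ratio of medium and big over small was 0.12 on unscaled totals, 0.22 in sections B to E and 0.60 as a mean within libraries. DESeq2 called 11 transcripts higher and 4 lower in big over medium, and 0 higher in the gradient change, as did A against E alone, and no filter gave 16. Without the replicate block, 2121 transcripts were higher and 2211 lower in A, 0 had a gradient change, and no call on a member changed. The share in section A of medium oocytes was 38.6% for spata13.L and 38.3% for lima1.S without TMM factors and 38.1% for lima1.S with RLE size factors, and that of lima1.L in very small oocytes was 20.003% with RLE size factors. The causes of these shifts were not tested beyond what is said. With 2 medium and 2 big oocytes, the smallest counts (18 to 86 for spata13.S in section E) limit the precision of the late gradients.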
